A study of Rattus norvegicus with 12 samples.

Results

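The comparison described here sets TRL1215 cells kept in 100 µM perfluorooctanoic acid (PFOA), called T100, against their passage-matched controls. It uses 6 of the 12 arrays of the series, 3 titled T100 and 3 titled control, and all 22093 genes with 1 gene symbol, each read from its brightest probe set. TRL1215 is an established line of rat liver cells. T100 cells were kept at 100 µM for up to 38 weeks, with fresh PFOA added each time, while control cells were carried through the same number of passages without it. Both groups grew in William's E medium with 10% fetal bovine serum and were passaged weekly. The other 6 arrays of the series hold cells kept in 10 µM (T10) or 50 µM (T50) PFOA and serve here for the estimate of the spread and for values side by side. The labels do not say whether the 3 samples of a group came from separate cultures, so p-values measure the spread between these samples, which may be technical. All groups are the same single cell line.

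PFOA is a fully fluorinated fatty acid with a carboxyl head, used as a surfactant, that persists in the body and accumulates in the liver. In rodent hepatocytes it is known to activate the nuclear receptor PPAR-alpha, which drives fatty acid oxidation genes. Lines such as TRL1215 are used as non-tumorigenic starting cells in long exposures, and the series title concerns traits of tumour cells gained under PFOA. The comparison thus asks which genes differ from control at the highest of the 3 doses.

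Levels and changes are on the log2 scale of the deposited values, changes are T100 minus control with the standard error of the fit (n = 3 and 3 arrays), and p-values are two-sided, from limma and adjusted by Benjamini-Hochberg over all 22093 genes. The call threshold was an adjusted p of 0.05, and "rose" and "fell" are used of genes past it. Background was read from the negative-control probe sets as their 95th percentile on each array, 5.48 to 5.82 on the T100 arrays and 5.36 to 5.52 on the control arrays. By that measure 4540 genes (20.5%) were above background in T100 or control. Where 1 group of a gene lay below background, its fold is given as a lower bound against that level. The values stop at a ceiling of 19.93, so a change in genes there, such as Vim, Fn1, Gapdh and Ccl2, would not be seen. On all 6 arrays 203 genes held 1 identical value, and a value fixed in this way may hide a change.

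Most hepatocyte markers were not above background in this liver line. Of 33 hepatocyte markers, 2 were above background (Arg1 and Gckr), and Alb and Hnf4a were below background in both groups (3.69 at T100 and 3.70 in control for Alb). The mean level of the list was 3.81 to 3.85 over the T100 arrays and 3.83 to 3.84 over the control arrays. The biliary and progenitor markers Krt19, Epcam and Afp were also below background, and Krt8, a simple-epithelial keratin, stood at 19.06 in both groups.

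At 100 µM 208 genes rose and 115 fell, which is 1.46% of the genes tested, with 0.941% called higher and 0.521% called lower. Among genes above background the shares were larger, at 3.22% higher and 1.45% lower. Changes of at least 2-fold were found for 33 genes that rose and 20 that fell. The median change was 0.003 over all genes and 0.05 over genes above background. Of all genes 52.4% had a positive and 47.3% a negative change, against 64.1% and 34.5% of genes above background. These shares, and the counts of positive or negative changes on lists, are approximate. Some of the 203 genes with 1 identical value on all 6 arrays carry a sign from rounding in the fit. At an unadjusted p under 0.05 stood 2733 genes (12.4% of all, 7.66% higher and 4.71% lower), and 27.0% of genes above background. T100 and control arrays lay 0.181 to 0.212 apart (root mean square difference over genes), against 0.132 to 0.168 within T100 and 0.126 to 0.140 within control. In all 323 called genes the 3 T100 arrays lay on one side of the 3 control arrays, which was true of 18.1% of all genes tested.

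**Figure D1:**
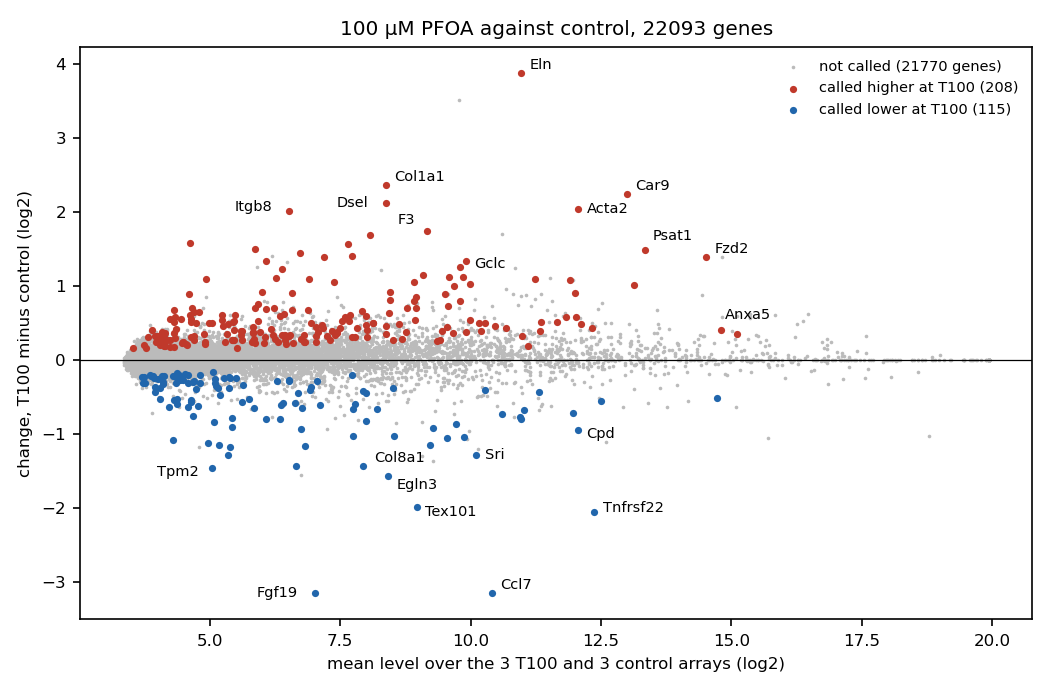
Change at T100 against control (log2, vertical axis) by the mean level over the 6 arrays (log2, horizontal axis), one point a gene. The 208 genes called higher are red, the 115 called lower are blue and the others grey; Eln stands highest at 3.88, and Ccl7 and Fgf19 lowest at -3.15.

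How firmly a gene was called varied. Of the 323 called genes 74 kept their call when each of the 12 arrays was left out in turn, and 38 did so in every alternative that tested them. Above background were 27 of these 38: Ccl7, Fgf19, Tex101, Col8a1, Sri, Rras, Cldn1, Ndrg1, Cpd, Cxcl16, Jmjd8, Flrt2, Scmh1 and Lgmn, which fell, and Dsel, Meis1, Gpc3, Gclc, Prps1, Tspan6, Atp1b1, Rcor3, Spats2l, Tmem108, Ddx3y, Paics-ps6 and Anxa5, which rose. A fit of the 6 arrays alone called 93 genes, 71 of them among the 323, and ended the call of 64 of the 102 called genes named by rule. Of the 20 largest rises and 20 largest falls that fit kept Acta2, Col12a1, Dsel, Gclc, Gpc3 and Meis1 among the rises and Ccl7, Cldn1, Col8a1, Cpd, Dusp7, Fgf19, Ndrg1, Rras, Sri, Tex101 and Tnfrsf22 among the falls. A fit that took the 95th percentile of the array as a covariate called 252 genes, 147 of them among the 323, with 94 of the 252 higher. It ended the calls of Acta2, Col12a1, Cyp2s1, Fzd2, Inpp5f, Itgb8 and Psat1 among the 20 largest rises and of Dusp7, Egln3, Fam110c, Il1rn, Mt1m, Sat1 and Tnfrsf22 among the 20 largest falls. Quantile normalization called 456 genes, 201 of them higher, so both turned the split to mostly lower calls, while each of the 323 kept its direction in both. Fewer genes were called without T100 replicate 1 (156), 2 (218) or 3 (193) and without control replicate 1 (143), 2 (89) or 3 (161). The count was also lower without T50 replicate 2 (251) or 3 (289) or T10 replicate 3 (250). It was higher without T50 replicate 1 (325) or T10 replicate 1 (345) or 2 (329).

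The largest 2 rises were those of matrix genes. Matrix genes encode the collagens, elastic fibres and proteoglycans that cells secrete around themselves, and in liver they are made chiefly by stellate cells and fibroblasts. Eln, which encodes elastin, the rubber-like core of elastic fibres, was at 12.58, 12.12 and 14.04 on the T100 arrays, against 9.0, 8.92 and 9.18 on the control arrays. T100 replicate 3 was the highest and the groups did not overlap. The change was 3.88 ± 0.51 (14.7-fold, adjusted p = 0.00919), and in the fit of the 6 arrays alone it was not called (adjusted p = 0.0595). Col1a1, a chain of type I collagen, was at 9.56, 8.96 and 10.14 on the T100 arrays, against 7.02, 7.20 and 7.36 on the control arrays. It rose by 2.36 ± 0.29 (5.14-fold, adjusted p = 0.00712), again with T100 replicate 3 highest, and was not called in the 6-array fit either (adjusted p = 0.0593). Col12a1, a collagen that decorates type I fibrils, rose by 1.69 ± 0.27 (adjusted p = 0.0177); a second probe set was also higher at T100 but below background in control, at 6.20 at T100 and 5.24 in control.

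Of 18 fibrillar and associated collagens measured, 2 rose, 1 fell and 15 did not pass. Counts of calls on this and later lists are to be read against 0.941% higher and 0.521% lower over all genes. Over genes above background the shares were 3.22% and 1.45%. A positive change was measured in 17 of the 18, against 52.4% of all genes, with a median of 0.09, and 7 were above background. Col3a1, the type III chain, was at 11.49, 10.85 and 12.02 on the T100 arrays, against 9.33, 9.79 and 10.12 on the control arrays; its change of 1.71 ± 0.42 did not pass (adjusted p = 0.0892), nor did that of Col1a2 (1.25 ± 0.41, adjusted p = 0.217). The exception in direction was Col8a1, a short-chain collagen of vessel and eye matrices, which was at 7.26, 6.95 and 7.47 on the T100 arrays, against 8.77, 8.51 and 8.70 on the control arrays. It fell by 1.43 (2.69-fold lower, adjusted p = 0.00458).

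Among 21 genes of elastic fibres and matrix crosslinking 3 rose, 0 fell and 18 did not pass. Beside Eln these were Fbn1, the fibrillin of the microfibril scaffold (0.91 ± 0.17, adjusted p = 0.0333), and Ltbp4, which helps elastin onto that scaffold (0.70 ± 0.14, adjusted p = 0.0467). Fbn1 was at 7.16, 6.78 and 7.17 on the T100 arrays, against 6.11, 6.22 and 6.04 on the control arrays. The list's median was 0.02. Of 16 collagen folding and processing enzymes 1 rose, Pcolce, an enhancer of procollagen trimming (at least 1.19-fold, adjusted p = 0.0423, below background in control), while P4ha1, a collagen prolyl hydroxylase, was at 0.68 ± 0.15 (adjusted p = 0.0633).

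Of 25 genes of proteoglycans and their synthesis 2 rose and 0 fell. Dsel, related to the epimerase that makes dermatan sulfate, was at 9.33, 9.43 and 9.57 on the T100 arrays, against 7.07, 7.19 and 7.70 on the control arrays. It rose by 2.12 ± 0.24 (4.36-fold, adjusted p = 0.00460) with little spread among the T100 arrays. Gpc3, a cell-surface glypican of fetal liver and of liver tumours, was at 8.57, 8.32 and 8.40 on the T100 arrays, against 6.90, 6.93 and 7.24 on the control arrays, and rose by 1.40 ± 0.12 (2.65-fold, adjusted p = 0.00141). Serpinf1, the secreted anti-angiogenic factor PEDF, rose by 1.23 ± 0.14 (2.35-fold, adjusted p = 0.00480). Among 14 genes of coagulation and the plasminogen system both called members rose: F3, the tissue factor that starts clotting, by 1.75 ± 0.24 (3.36-fold, adjusted p = 0.0106), and Tfpi, the inhibitor of that step, by 0.42 ± 0.07 (adjusted p = 0.0229). F3 was at 10.50, 9.83 and 9.77 on the T100 arrays, against 8.01, 8.30 and 8.54 on the control arrays. Of 26 matrix proteases and inhibitors, Adam12, a membrane metalloprotease of mesenchymal cells, rose by 1.12 ± 0.18 (adjusted p = 0.0177), and Adam10, a sheddase of many receptors, fell by 0.72 (adjusted p = 0.0259); Adam8 and Mmp3 also fell but were below background in both groups.

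Single arrays decided part of these matrix calls. Calls ended for Col12a1 without T100 replicates 1 or 3 or control replicates 1, 2 or 3 (adjusted p up to 0.0706), Fbn1 without T100 replicates 1 or 3, T50 replicate 2, T10 replicate 3 or control replicates 1, 2 or 3 (adjusted p up to 0.109), Ltbp4 without T100 replicates 1 or 3, T50 replicates 1, 2 or 3, T10 replicates 1 or 3 or control replicates 1, 2 or 3 (adjusted p up to 0.146) and Pcolce without T100 replicates 1, 2 or 3, T50 replicates 2 or 3, T10 replicate 3 or control replicates 1, 2 or 3 (adjusted p up to 0.133). The same held for Tfpi without T100 replicates 1 or 3 or control replicates 1 or 2 (adjusted p up to 0.0961), Adam12 without T100 replicate 1 or control replicates 1, 2 or 3 (adjusted p up to 0.0749), Adam10 without T100 replicates 1 or 2 or control replicates 1, 2 or 3 (adjusted p up to 0.0978), Adam8 without T100 replicate 1 or control replicates 1 or 2 (adjusted p up to 0.0690) and Mmp3 without T100 replicates 1, 2 or 3, T50 replicates 1, 2 or 3, T10 replicate 3 or control replicates 1 or 2 (adjusted p up to 0.140). Eln, Col1a1, Col8a1, Dsel, Gpc3, Serpinf1 and F3 kept theirs without any one array.

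**Figure D2:**
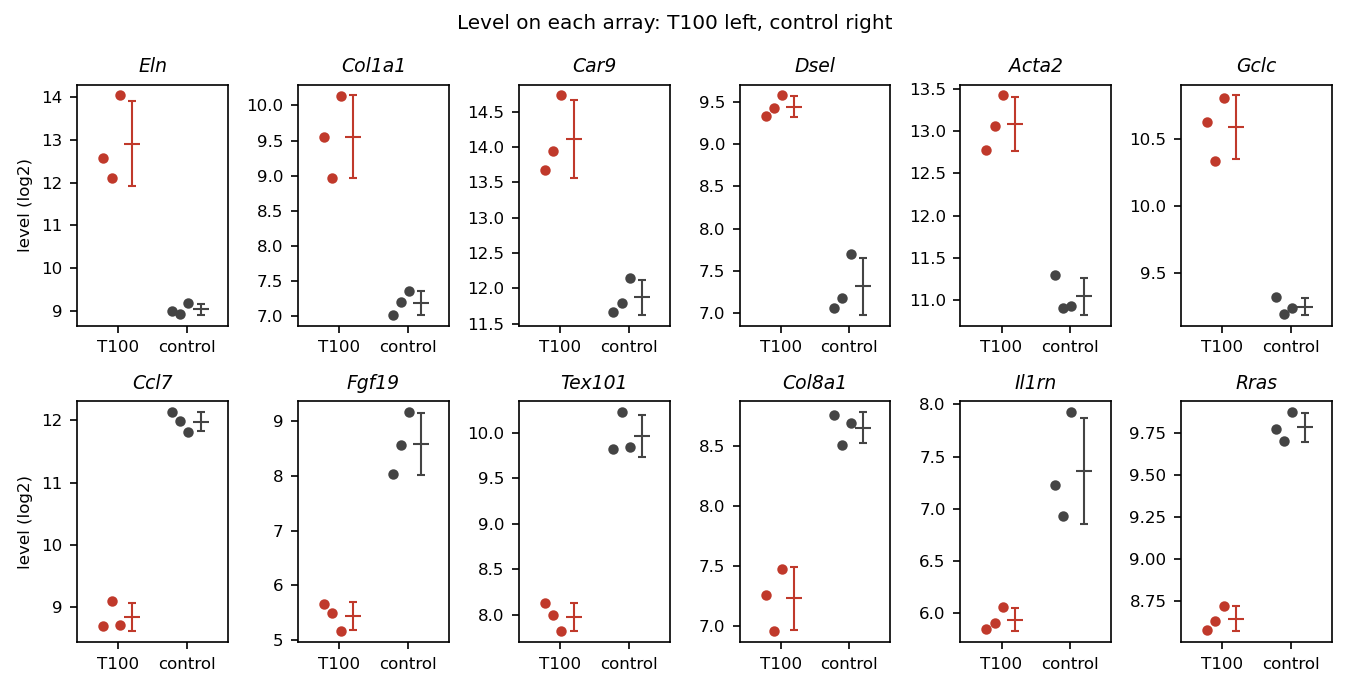
Level (log2) of 12 genes on each T100 array (red, left) and control array (grey, right), with the mean and SD of the 3 arrays beside the points. In each of the 12 genes the T100 and control arrays do not overlap; Eln on T100 replicate 3 stands at 14.04, against 9.18 on the highest control array.

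Smooth-muscle actin rose while 1 tropomyosin gene, Tpm2, fell to below background. Acta2, the actin of smooth muscle and of activated stellate cells, was at 12.78, 13.06 and 13.42 on the T100 arrays, against 11.30, 10.91 and 10.93 on the control arrays. It rose by 2.04 ± 0.30 (4.11-fold, adjusted p = 0.0134) with no overlap, and was not called with the brightness covariate (adjusted p = 0.0564). Tpm2, a tropomyosin that binds along actin filaments, was at 4.21, 4.38 and 4.33 on the T100 arrays, against 6.27, 5.36 and 5.66 on the control arrays. All 3 T100 arrays lay below background, and Tpm2 was at least 1.08-fold lower by that bound (adjusted p = 0.0115). A second probe set was below background in both groups, at 4.21 at T100 and 4.77 in control. Of 25 contractile genes 1 rose, 2 fell and 22 did not pass. The fit of the 6 arrays alone called 1 of them higher, Acta2, and 0 lower, so Tpm2 and Actn1 lost their calls there. Actn1, an actin crosslinker, fell by 0.43 (adjusted p = 0.0339), and Tagln, another gene of contractile cells, was below background in both groups.

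Of 23 stellate cell and fibroblast markers 3 rose (Col1a1, Acta2 and Pdpn, the membrane mucin podoplanin, 1.09 ± 0.18, adjusted p = 0.0181), 0 fell and 20 did not pass. The median of the list was -0.01, and 8 members were above background. Pdgfra, Pdgfrb, Thy1, Lrat, Dcn and Lum were below background in both groups (3.68 at T100 and 3.69 in control for Pdgfra, 3.77 at T100 and 3.82 in control for Lrat). The mean level of the 23 was 6.65 to 6.85 over the T100 arrays and 6.35 to 6.44 over the control arrays. In such bulk RNA, more cells of one kind and more RNA per cell cannot be told apart, and the part of such cells in the matrix rises was not tested. Calls ended for Acta2 without control replicates 2 or 3 (adjusted p up to 0.0667), Pdpn without T100 replicates 1 or 3 or control replicate 2 (adjusted p up to 0.0725) and Actn1 without T100 replicates 1 or 2, T50 replicate 2 or control replicates 1, 2 or 3 (adjusted p up to 0.116).

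Genes of the basement membrane and of cell junctions moved down where they were called. Basement membranes are the laminin sheets on which epithelial cells sit, and tight junctions seal such cells to each other. Of 18 basement membrane genes 0 rose, 3 fell and 15 did not pass. The fit of the 6 arrays alone called 0 of them lower, and the fit with the brightness covariate called 5. Bcam, a laminin receptor, was at 9.43, 9.21 and 9.43 on the T100 arrays, against 10.27, 10.65 and 10.27 on the control arrays, and fell by 1.04 (2.06-fold lower, adjusted p = 0.0158). Lamb3, a chain of the laminin that anchors epithelia, was at 7.52, 7.38 and 7.86 on the T100 arrays, against 8.53, 8.42 and 8.30 on the control arrays, and fell by 0.83 (1.78-fold lower, adjusted p = 0.0115). Nid2, a nidogen that links laminin to collagen IV, fell by 0.38 (adjusted p = 0.00941) and lay close to background in control, so no fold is given. Of 26 junction and keratin genes 0 rose and 2 fell. The fit of the 6 arrays alone called 1 of these genes lower, Cldn1, so F11r lost its call there. With the brightness covariate 3 were called lower. F11r, the junctional adhesion molecule A, was at 7.41, 7.36 and 7.47 on the T100 arrays, against 7.96, 8.0 and 8.27 on the control arrays, and fell by 0.66 (1.58-fold lower, adjusted p = 0.0104). Cldn1, a tight junction claudin, was at 4.64, 4.30 and 4.27 on the T100 arrays, against 5.64, 5.38 and 5.53 on the control arrays, and fell (adjusted p = 0.0110), but its control mean lay so near background that no fold can be given. Jup, which encodes plakoglobin, was at -0.63 ± 0.15 (adjusted p = 0.0748) and did not pass, and Cdh1 was below background.

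Integrins, the receptors that hold cells to matrix, were called in 2 of 19 cases. Itgb8, the beta subunit that with alpha v frees latent TGF-beta, was at 8.04, 7.18 and 7.33 on the T100 arrays, against 5.23, 5.80 and 5.48 on the control arrays. It rose by 2.01 ± 0.32 (4.04-fold, adjusted p = 0.0177), and its second probe set was at 1.23. The control mean of Itgb8 lay close to background, with control replicate 1 below it, so the fold is uncertain. Itgb4 fell but was below background in both groups. Itga2, a collagen receptor subunit, was at 5.91, 5.84 and 6.19 on the T100 arrays, against 8.14, 7.48 and 6.96 on the control arrays; the groups did not overlap, yet its change of -1.55 ± 0.33 did not pass (adjusted p = 0.0575). Calls ended for Bcam without T100 replicate 2 or control replicate 2 (adjusted p up to 0.0667), Lamb3 without control replicate 2 (adjusted p up to 0.0531), Itgb8 without T100 replicate 1 or control replicates 1, 2 or 3 (adjusted p up to 0.0708) and Itgb4 without control replicate 2 (adjusted p up to 0.0522).

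Inflammatory genes fell where they were called. NF-kB is the transcription factor that switches on chemokines and cytokines after injury or infection, along with its own inhibitors such as the I-kappa-B proteins. Of 45 genes on that list 0 rose and 5 fell, while 40 did not pass. The fit of the 6 arrays alone called 1 of the list lower, Ccl7. With the brightness covariate 3 were called lower. Over all genes 0.941% were called higher and 0.521% lower, and over genes above background 3.22% and 1.45%. The median change of the list was -0.03, and 13 of its members were above background. Ccl7, a chemokine that attracts monocytes, was at 8.70, 9.10 and 8.72 on the T100 arrays, against 12.13, 11.99 and 11.82 on the control arrays. It fell by 3.15 (8.86-fold lower, adjusted p = 0.000124), and all 3 T100 arrays lay far below the 3 control arrays. Il1rn, the antagonist of the interleukin-1 receptor, was at 5.85, 5.91 and 6.07 on the T100 arrays, against 7.23, 6.93 and 7.93 on the control arrays, and fell by 1.43 (2.69-fold lower, adjusted p = 0.0150).

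The other 3 were regulators and a growth factor of macrophages. Nfkbiz, a nuclear I-kappa-B protein, was at 6.06, 6.16 and 5.97 on the T100 arrays, against 6.56, 6.79 and 6.66 on the control arrays, and fell by 0.60 (1.52-fold lower, adjusted p = 0.00348). Nfkbia, the classical NF-kB inhibitor, was at 4.65, 4.58 and 4.77 on the T100 arrays, against 5.25, 5.47 and 5.79 on the control arrays, and fell (adjusted p = 0.0134) to below background. Its control mean lay close to background, with control replicate 1 below it, so no fold is given. Csf1, the macrophage colony-stimulating factor, fell by 0.79 (adjusted p = 0.0391). Cxcl1, a chemokine for neutrophils, was at 8.85, 8.60 and 8.37 on the T100 arrays, against 9.38, 10.06 and 10.47 on the control arrays; its change of -1.37 ± 0.30 did not pass (adjusted p = 0.0662). Named by size or p outside the list were Cxcl16, a membrane-bound chemokine, which fell by 0.93 (1.90-fold lower, adjusted p = 0.00458), and Irak3, an inhibitor of Toll-like receptor signalling, which fell by 1.03 (2.04-fold lower, adjusted p = 0.0131). In the opposite direction Tlr5, the receptor for flagellin, rose by 1.11 ± 0.16 (adjusted p = 0.0112); it was picked after its value was seen. Calls ended for Il1rn without T100 replicate 1 (adjusted p up to 0.0567), Nfkbia without T100 replicate 1 or control replicate 2 (adjusted p up to 0.0577), Csf1 without T100 replicates 1, 2 or 3, T50 replicate 2, T10 replicates 1, 2 or 3 or control replicates 1 or 2 (adjusted p up to 0.140), Irak3 without control replicates 1 or 2 (adjusted p up to 0.0556) and Tlr5 without control replicate 2 (adjusted p up to 0.0531).

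The stretches of 250 bases before the start of Nfkbia, Nfkbiz and Ccl7 (RefSeq, GRCr8) show what these fallen genes share and do not share in the letters just upstream; they are printed 5′ to 3′ in the direction of the gene. Capitals mark a match to the NF-kB consensus, on the strand opposite to the one printed in Nfkbia (chr6:78597073-78597322, minus strand) and on the printed strand in Nfkbiz (chr11:58251471-58251720, plus strand), and TATAAA in Ccl7 (chr10:67513845-67514094, plus strand).
Nfkbia: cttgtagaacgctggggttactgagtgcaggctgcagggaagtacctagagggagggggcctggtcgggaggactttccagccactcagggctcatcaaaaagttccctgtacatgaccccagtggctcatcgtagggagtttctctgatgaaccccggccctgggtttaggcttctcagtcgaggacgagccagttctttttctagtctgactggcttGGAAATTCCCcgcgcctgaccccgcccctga
Nfkbiz: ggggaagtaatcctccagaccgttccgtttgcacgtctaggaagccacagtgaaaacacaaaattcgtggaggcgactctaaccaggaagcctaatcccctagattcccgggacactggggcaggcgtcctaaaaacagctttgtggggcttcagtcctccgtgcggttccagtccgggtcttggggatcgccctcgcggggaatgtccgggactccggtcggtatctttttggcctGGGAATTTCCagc
Ccl7: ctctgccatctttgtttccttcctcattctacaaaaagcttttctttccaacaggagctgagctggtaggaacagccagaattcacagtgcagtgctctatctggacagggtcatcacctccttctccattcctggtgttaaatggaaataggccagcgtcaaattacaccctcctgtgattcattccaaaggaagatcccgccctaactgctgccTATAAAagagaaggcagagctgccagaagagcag
The NF-kB consensus, searched on both strands, was found in 3.54% of all 33469 upstream windows of this length. On the inflammatory list 14 of 36 windows held it, and of the 4 called members with a window 2 did. The list was drawn up around NF-kB, so its share is no result about the genes that fell. Ccl7, with the largest fall, and Il1rn, whose window is not printed, had no match. TATAAA was found in 12.9% of all windows on either strand, in 12 of the 36 windows of the list and in 2 of the 4 of called members. A match is a run of letters and says nothing of binding in these cells.

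Hypoxia genes were called in both directions. Cells short of oxygen stabilise HIF, which switches on glycolysis, acid export and its own prolyl hydroxylases. Of 31 measured, 1 rose, 3 fell and 27 did not pass. Car9, a surface carbonic anhydrase used as a hypoxia marker, was at 13.67, 13.95 and 14.73 on the T100 arrays, against 11.67, 11.80 and 12.15 on the control arrays. It rose by 2.24 ± 0.30 (4.73-fold, adjusted p = 0.0102), with an adjusted p of 0.0622 in the 6-array fit. Ndrg1, a stress gene raised by hypoxia and by iron loss, was at 7.14, 7.09 and 7.47 on the T100 arrays, against 8.37, 8.15 and 8.25 on the control arrays, and fell by 1.02 (2.03-fold lower, adjusted p = 0.0110). Egln3, a prolyl hydroxylase that marks HIF for decay, was at 7.35, 7.44 and 8.11 on the T100 arrays, against 9.32, 8.86 and 9.44 on the control arrays, and fell by 1.57 (2.97-fold lower, adjusted p = 0.0364). Adm fell too but was below background in both groups. Car2, a cytosolic carbonic anhydrase, fell to below background (at least 1.07-fold lower, adjusted p = 0.00856). Slc2a1, the glucose transporter GLUT1, was at -0.67 ± 0.14 and did not pass (adjusted p = 0.0574). The list of glycolysis and lactate genes had 0 calls among 28 (limma), with 2 higher and 5 lower at an unadjusted p under 0.05 (12.4% of all genes stood there); Pfkl, a phosphofructokinase, was at -0.59 ± 0.14 (adjusted p = 0.0849) and Pdha1, of pyruvate dehydrogenase, at 0.50 ± 0.16 (adjusted p = 0.214). Calls ended for Egln3 without T100 replicates 1 or 2, T50 replicate 2, T10 replicate 1 or control replicates 1, 2 or 3 (adjusted p up to 0.116) and Adm without T100 replicates 1, 2 or 3, T50 replicate 2, T10 replicate 3 or control replicates 1 or 2 (adjusted p up to 0.0885).

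Single enzymes of glutathione, serine and nucleotide synthesis rose. Gclc, the catalytic subunit that makes the first bond of glutathione, was at 10.62, 10.33 and 10.80 on the T100 arrays, against 9.32, 9.20 and 9.24 on the control arrays. It rose by 1.33 ± 0.09 (2.52-fold, adjusted p = 0.000512). Of 31 pentose phosphate and NRF2 antioxidant genes 2 rose and 0 fell, the other being Me1, the cytosolic malic enzyme that yields NADPH (0.33 ± 0.06, adjusted p = 0.0308). Hmox1 was below background, Nqo1 was at -0.43 ± 0.21 (adjusted p = 0.454) and Txnrd1 at 0.44 ± 0.09 (adjusted p = 0.0570), and neither passed. The list's median was -0.04, with 19 members lower and 10 higher.

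Psat1, the transaminase of serine synthesis, was at 13.67, 13.96 and 14.61 on the T100 arrays, against 12.66, 12.42 and 12.71 on the control arrays, and rose by 1.49 ± 0.28 (2.80-fold, adjusted p = 0.0364), most on T100 replicate 3. It was the one call among 33 genes of the integrated stress response and amino acid synthesis. Of these 28 had a positive change, against 52.4% of all genes and 64.1% of genes above background, where 14 of the 33 stood. The median was 0.18 (0.13 after quantile normalization), against 0.003 over all genes and 0.05 over genes above background. Atf4, the transcription factor of that response, was at 0.61 ± 0.16 (adjusted p = 0.0982), Mthfd2 at 0.53 ± 0.12 (adjusted p = 0.0670) and Chac1 at 0.47 ± 0.10 (adjusted p = 0.0607), and none of the 3 passed. Among 23 amino acid transporters 1 rose, Slc7a8, a carrier of neutral amino acids (0.70 ± 0.14, adjusted p = 0.0391). The larger carrier change, that of Slc7a5 (1.08 ± 0.33), did not pass (adjusted p = 0.167), and Slc3a2, its heavy chain, was at 0.28 ± 0.06 (adjusted p = 0.0544). Prps1, which is outside the lists and makes the ribose phosphate donor of nucleotides, rose by 0.85 ± 0.09 (1.81-fold, adjusted p = 0.00436). Its arrays were at 9.17, 9.45 and 9.50 on the T100 arrays, against 8.55, 8.53 and 8.47 on the control arrays.

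Of 23 genes of polyamine and nucleotide metabolism 0 rose and 1 fell, Sat1, the acetyltransferase that starts polyamine breakdown. Sat1 was at 6.33, 6.11 and 6.29 on the T100 arrays, against 7.79, 7.23 and 7.18 on the control arrays, and fell by 1.16 (2.23-fold lower, adjusted p = 0.0284). Cyp2s1, a cytochrome P450 of epithelia, was below background in control and rose (at least 2.47-fold, adjusted p = 0.0312) and was highest on T100 replicate 3, at 6.62, 6.18 and 7.43 on the T100 arrays. Mt1m, a metallothionein, fell to below background (at least 1.25-fold lower, adjusted p = 0.0198). Calls ended for Me1 without T100 replicates 1 or 3, T10 replicate 3 or control replicates 1, 2 or 3 (adjusted p up to 0.0978), Psat1 without T100 replicates 2 or 3, T50 replicates 2 or 3, T10 replicate 3 or control replicates 1, 2 or 3 (adjusted p up to 0.132) and Slc7a8 without T100 replicate 1, T50 replicates 1, 2 or 3, T10 replicates 1 or 3 or control replicates 1, 2 or 3 (adjusted p up to 0.132). The same held for Sat1 without T100 replicates 1, 2 or 3 or control replicates 1, 2 or 3 (adjusted p up to 0.0824), Cyp2s1 without T100 replicate 1, T50 replicate 2, T10 replicate 3 or control replicates 1, 2 or 3 (adjusted p up to 0.112) and Mt1m without T100 replicates 1 or 3 or control replicates 1 or 3 (adjusted p up to 0.0685).

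Genes of PPAR and fatty acid oxidation, the response for which PFOA is known in rodent liver, were mostly dim. Of 34 measured 6 were above background, and 1 rose: Acaa2, a mitochondrial thiolase, by 0.33 ± 0.07 (adjusted p = 0.0440). Cyp4a1, Pdk4 and Angptl4 were below background in both groups (3.61 at T100 and 3.60 in control for Cyp4a1), and Cpt1a, which admits fatty acids to mitochondria, was at 0.39 ± 0.19 (adjusted p = 0.456). Of 32 lipid synthesis genes 2 rose and 0 fell: Elovl5, which elongates polyunsaturated fatty acids, by 0.58 ± 0.10 (adjusted p = 0.0257), and Acsl3, which activates fatty acids for lipid droplets, by 0.66 ± 0.13 (adjusted p = 0.0423). Elovl5 was at 12.31, 12.28 and 12.32 on the T100 arrays, against 11.70, 11.56 and 11.90 on the control arrays. Of 26 cholesterol genes 0 rose and 2 fell, Npc2, which carries cholesterol out of lysosomes (-0.67 ± 0.10, adjusted p = 0.0131), and Nr1h3, which was below background. Ucp2, a mitochondrial carrier, fell by 0.52 (1.43-fold lower, adjusted p = 0.0104).

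Lysosomal genes were called in both directions. Lysosomes digest proteins and lipids with cathepsins and other acid hydrolases. Of 34 lysosome and autophagy genes 1 rose, 2 fell and 31 did not pass. A negative change was measured in 30, against 47.3% of all genes and 34.5% of genes above background, where 21 of the 34 stood. The median was -0.11 (-0.19 after quantile normalization), against 0.003 over all genes and 0.05 over genes above background, with no test of the list as a whole. Ctsd, the aspartic protease cathepsin D, was at 10.30, 10.14 and 10.27 on the T100 arrays, against 11.07, 10.86 and 10.99 on the control arrays, and fell by 0.73 (1.66-fold lower, adjusted p = 0.0310). Npc2 was at 7.98, 7.82 and 7.83 on the T100 arrays, against 8.68, 8.52 and 8.44 on the control arrays. Ctsz, a carboxypeptidase cathepsin, was at 9.30, 9.35 and 9.30 on the T100 arrays, against 8.80, 8.34 and 8.68 on the control arrays, and rose by 0.71 ± 0.14 (adjusted p = 0.0440), so proteases of one organelle were called in opposite directions. Outside the list Lgmn, the asparaginyl protease legumain, fell by 0.58 (1.49-fold lower, adjusted p = 0.00919), and Cpd, a carboxypeptidase of the Golgi, fell by 0.94 (1.92-fold lower, adjusted p = 0.00919). Lamp1 was at -0.48 ± 0.12 (adjusted p = 0.0920) and did not pass.

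Calls on lipid and lysosomal genes rested on single arrays in several cases. They ended for Acaa2 without T100 replicates 1, 2 or 3, T50 replicates 1, 2 or 3, T10 replicate 3 or control replicates 1, 2 or 3 (adjusted p up to 0.153), Elovl5 without T100 replicates 1, 2 or 3 or control replicates 1 or 2 (adjusted p up to 0.0941) and Acsl3 without T100 replicates 1, 2 or 3, T50 replicate 2, T10 replicate 3 or control replicates 1, 2 or 3 (adjusted p up to 0.153). The same held for Npc2 without control replicates 1 or 2 (adjusted p up to 0.0555), Nr1h3 without T100 replicates 1, 2 or 3, T50 replicate 2 or control replicates 1, 2 or 3 (adjusted p up to 0.0938), Ctsd without T100 replicates 1, 2 or 3, T50 replicate 2 or control replicates 1, 2 or 3 (adjusted p up to 0.108) and Ctsz without T100 replicates 1, 2 or 3, T50 replicates 1 or 3, T10 replicates 2 or 3 or control replicates 1, 2 or 3 (adjusted p up to 0.130). Acaa2 (adjusted p = 0.226) and Ctsz (adjusted p = 0.0783) were also not called after quantile normalization.

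Growth factor and receptor genes changed singly. Fgf19, the endocrine fibroblast growth factor that restrains bile acid synthesis, was at 5.67, 5.49 and 5.16 on the T100 arrays, against 8.03, 8.56 and 9.17 on the control arrays. It fell by the bound of at least 7.33-fold (adjusted p = 0.00275), since the T100 mean lay below background. Of 38 growth factors and receptors 3 rose and Fgf19 alone fell, but the 3 that rose (Ptprz1, Vegfc and Fgf18) were below background in both groups. Of 31 WNT genes 1 rose, Fzd2, a Frizzled receptor, at 15.09, 14.92 and 15.65 on the T100 arrays, against 13.90, 13.49 and 14.08 on the control arrays; it rose by 1.40 ± 0.26 (2.63-fold, adjusted p = 0.0345). Ror1, a receptor-like kinase for Wnt5a outside the list and picked after its value was seen, rose by 1.10 ± 0.15 (adjusted p = 0.0112). Of 29 genes of TGF-beta, BMP and activin signalling 0 rose and 1 fell, Fst, the activin-binding follistatin, at 12.31, 12.18 and 12.18 on the T100 arrays, against 12.80, 12.77 and 12.76 on the control arrays (-0.55 ± 0.08, adjusted p = 0.0120).

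Both called members of the 19 genes of the insulin-like growth factor system were binding proteins, and they went opposite ways. Igfbp2 was at 7.16, 6.82 and 6.74 on the T100 arrays, against 6.20, 6.26 and 6.23 on the control arrays, and rose by 0.68 ± 0.09 (adjusted p = 0.0110). Igfbp4 was at 10.82, 10.40 and 10.47 on the T100 arrays, against 11.35, 11.30 and 11.41 on the control arrays, and fell by 0.79 (adjusted p = 0.0181). Igfbp7 was at 0.97 ± 0.20 and did not pass (adjusted p = 0.0532). Of 34 MAPK feedback and immediate early genes 0 rose and 1 fell, Dusp7, a phosphatase of ERK, by 1.05 (2.07-fold lower, adjusted p = 0.0310). Rras, a small GTPase that raises integrin adhesion, was at 8.57, 8.63 and 8.72 on the T100 arrays, against 9.78, 9.70 and 9.88 on the control arrays, and fell by 1.14 (2.21-fold lower, adjusted p = 0.00919). Of 30 TNF receptor and apoptosis genes 0 rose and 1 fell: Tnfrsf22, known in mouse as a decoy receptor for TRAIL, which averaged 11.35 ± 0.31 at T100 and 13.40 ± 0.30 in control (4.15-fold lower, adjusted p = 0.0407). Of 37 guidance genes 3 rose (Efna5, Sema3a and Nrp1), each below background in both groups, and Nrp1 was not called after quantile normalization (adjusted p = 0.0524).

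Calls ended for Fzd2 without T100 replicates 1 or 3, T50 replicate 2 or control replicates 1, 2 or 3 (adjusted p up to 0.127), Fst without control replicate 2 (adjusted p up to 0.0555), Ror1 without control replicate 2 (adjusted p up to 0.0531), Igfbp4 without T100 replicates 2 or 3 or control replicates 1, 2 or 3 (adjusted p up to 0.0696) and Dusp7 without T100 replicates 1, 2 or 3 or control replicates 1, 2 or 3 (adjusted p up to 0.108). The same held for Tnfrsf22 without T100 replicates 1, 2 or 3, T50 replicate 2, T10 replicate 3 or control replicates 1, 2 or 3 (adjusted p up to 0.129). Among the dim genes it held for Vegfc without control replicate 2 (adjusted p up to 0.0602), Fgf18 without control replicates 1, 2 or 3 (adjusted p up to 0.0780), Sema3a without T100 replicates 1, 2 or 3, T50 replicates 2 or 3 or control replicates 1, 2 or 3 (adjusted p up to 0.119) and Nrp1 without T100 replicates 1 or 3, T50 replicates 1, 2 or 3 or control replicates 1, 2 or 3 (adjusted p up to 0.142). With all its probe sets averaged Efna5 was not called.

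Other large or low-p changes were spread over many functions. Meis1, a homeobox transcription factor, was at 7.31, 7.42 and 7.66 on the T100 arrays, against 5.97, 5.99 and 6.08 on the control arrays, and rose by 1.45 ± 0.10 (2.73-fold, adjusted p = 0.000512). Anxa5, a calcium-dependent phospholipid binder, had one of the smallest errors: it was at 14.98, 14.98 and 15.03 on the T100 arrays, against 14.55, 14.57 and 14.66 on the control arrays, a rise of 0.41 ± 0.03 (1.33-fold, adjusted p = 0.000512). It and Atp1b1, the beta subunit of the sodium pump (0.62 ± 0.07, adjusted p = 0.00511), were the 2 called among 36 ion channel and calcium sensor genes. Sri, the calcium-binding protein sorcin, was at 9.22, 9.40 and 9.79 on the T100 arrays, against 10.82, 10.72 and 10.72 on the control arrays, and fell by 1.28 (2.43-fold lower, adjusted p = 0.00856). Flrt2, a fibronectin-leucine-rich membrane protein of cell guidance, was at 10.53, 10.61 and 10.56 on the T100 arrays, against 11.26, 11.48 and 11.25 on the control arrays, and fell by 0.77 (1.70-fold lower, adjusted p = 0.00706).

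Further rises were those of Frmd4b, a scaffold protein (1.57 ± 0.21, 2.98-fold), Cavin2, a coat protein of caveolae (1.39 ± 0.20, 2.61-fold), Inpp5f, a phosphoinositide phosphatase (1.15 ± 0.17, 2.21-fold), and the pseudogene row Cux1-ps1 (1.26 ± 0.19, 2.40-fold). Their adjusted p were 0.00927, 0.0117, 0.0141 and 0.0150. Tspan6, a tetraspanin (0.81 ± 0.08), the pseudogene row Paics-ps6 (0.80 ± 0.09), Plekha1, which binds phosphoinositides (0.69 ± 0.08), Agfg1, of nuclear export (0.54 ± 0.07), Erlin1, of the endoplasmic reticulum (0.47 ± 0.06), and the corepressor Rcor3 (0.45 ± 0.04) rose by less, at adjusted p of 0.00275 to 0.00712. A pseudogene row can take signal from its parent gene. Further falls were those of Fam110c (at least 1.26-fold, adjusted p = 0.0336), Cpxm2, a carboxypeptidase-like protein (at least 1.17-fold, adjusted p = 0.00919), Jmjd8 (at least 1.13-fold, adjusted p = 0.00297), the Polycomb protein Scmh1 (at least 1.43-fold, adjusted p = 0.000704), each below background at T100, and Rnf10, a RING finger protein (1.60-fold, adjusted p = 0.00841). Scmh1 was at 5.49, 5.53 and 5.55 on the T100 arrays, against 6.20, 6.12 and 6.17 on the control arrays. Calls ended for Cavin2 without control replicate 2 (adjusted p up to 0.0582), Inpp5f without control replicates 1 or 2 (adjusted p up to 0.0696), Cux1-ps1 without T100 replicate 1 or control replicates 1, 2 or 3 (adjusted p up to 0.0667) and Fam110c without T100 replicates 1 or 2, T50 replicate 2 or control replicates 1, 2 or 3 (adjusted p up to 0.111).

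The microRNA gene Mir3084c was the one microRNA row among the largest rises. It was at 6.24, 7.36 and 6.29 on the T100 arrays, against 5.43, 4.69 and 5.26 on the control arrays, highest on T100 replicate 2, and control was below background (at least 2.31-fold higher, adjusted p = 0.0423). The arrays were hybridised with amplified total RNA, so whether the row reads the mature microRNA or a longer transcript was not tested. Its mature products (RefSeq, GRCr8, chr5:89192494-89192514 and chr5:89192533-89192553, plus strand) are shown with the seed, bases 2 to 8, in capitals.
rno-miR-3084c-5p: gUUGAAGGuuaauuagcagag
rno-miR-3084c-3p: cUGCCAGUucccuucagacaa
The 2 arms have different seeds. The call ended for Mir3084c without T100 replicates 1, 2 or 3, T50 replicates 1, 2 or 3, T10 replicates 1 or 3 or control replicates 1, 2 or 3 (adjusted p up to 0.142), and in the 6-array fit it was not called (adjusted p = 0.183).

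Germ-cell and Y-linked genes also moved. Of 19 germ-cell and imprinted genes 1 rose and 2 fell. Tex101, a surface glycoprotein of germ cells, was at 8.12, 7.99 and 7.81 on the T100 arrays, against 9.82, 10.23 and 9.84 on the control arrays, and fell by 1.99 (3.97-fold lower, adjusted p = 0.000512). Rhox5, a homeobox gene of the X chromosome, was at 6.65, 6.51 and 6.75 on the T100 arrays, against 6.15, 6.03 and 5.95 on the control arrays, and rose by 0.59 ± 0.09 (adjusted p = 0.0141); Tex19.1 fell but was below background in both groups. Ddx3y, the Y-linked RNA helicase, was at 10.56, 10.37 and 10.55 on the T100 arrays, against 9.53, 9.47 and 9.42 on the control arrays, and rose by 1.02 ± 0.12 (2.03-fold, adjusted p = 0.00622). Eif2s3y, a Y-linked translation factor subunit looked up after Ddx3y was seen, was at 10.19, 10.46 and 9.92 on the T100 arrays, against 9.25, 9.01 and 9.29 on the control arrays, a rise of 1.01 ± 0.12 (2.01-fold, adjusted p = 0.00712). Of 8 Y-linked genes measured 3 were above background, and the third, Kdm5d, was near it at 5.67 at T100 and 5.49 in control and did not pass (adjusted p = 0.495). Second and dim rows of these genes were mixed. Uty was below background in both groups on both its probe sets, at 0.25 ± 0.12 on the brighter (adjusted p = 0.473) and 0.31 ± 0.05 on the other, which passed when limma was run over probe sets (adjusted p = 0.0144). The second probe set of Eif2s3y was also below background in both groups, at 0.28 ± 0.12, and did not pass (adjusted p = 0.391). Genes above background were placed on chromosomes through the rat gene table (4417 genes). Their median change lay between 0.00 (chromosome 12) and 0.11 (chromosome 18) on the 21 chromosomes other than Y, against 1.01 over the 3 Y-linked genes. That Y median is the change of Eif2s3y, the middle of the 3, and does not describe the Y chromosome as a whole. Over all placed genes the medians of T100 replicates 1, 2 and 3 against the control mean were 0.03, 0.00 and 0.09. Calls ended for Rhox5 without T100 replicate 1 or control replicates 2 or 3 (adjusted p up to 0.0667) and Tex19.1 without T100 replicates 1, 2 or 3 or control replicates 1 or 2 (adjusted p up to 0.107).

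**Figure D3:**
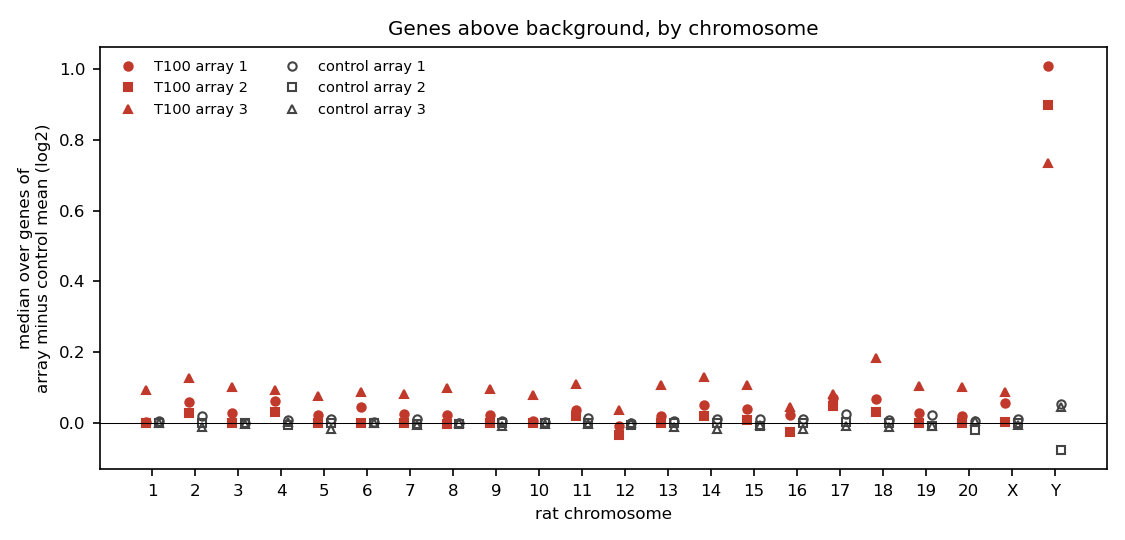
Median over genes above background of each array minus the control mean (log2, vertical axis), by rat chromosome; T100 arrays are filled red symbols and control arrays open grey symbols. The Y medians on T100 replicates 1, 2 and 3 are 1.01, 0.90 and 0.73, over 3 genes.

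Single genes of replication and respiration rose by little. Prim1, the primase subunit of DNA replication, rose by 0.40 ± 0.06 (adjusted p = 0.0160) as the one call among 42 genes of replication and G1/S. Ndufa9 of complex I rose by 0.39 ± 0.06 (adjusted p = 0.0151) and Uqcrc2 of complex III by 0.19 ± 0.04 (adjusted p = 0.0423), the 2 calls among 33 respiratory chain and ATP synthase genes. After quantile normalization none of the 3 was called (adjusted p = 0.0769, 0.135 and 0.628). Of 18 heat shock proteins 0 rose and 1 fell, Cryab, which was below background. Of 20 complement and acute phase genes 0 rose and 2 fell, C4a and C4b, both below background and near-identical copies whose signals may mix. Calls ended for Prim1 without T100 replicates 1 or 2 or control replicates 1 or 2 (adjusted p up to 0.0727), Ndufa9 without control replicates 1 or 2 (adjusted p up to 0.0727), Uqcrc2 without T100 replicates 1 or 2, T50 replicates 1, 2 or 3, T10 replicates 1 or 3 or control replicates 1, 2 or 3 (adjusted p up to 0.128), Cryab without T100 replicates 1, 2 or 3, T50 replicate 3, T10 replicates 1, 2 or 3 or control replicates 1, 2 or 3 (adjusted p up to 0.129) and C4a without control replicate 2 (adjusted p up to 0.0568).

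No gene was called by limma on 14 of the 49 lists, glycolysis among them. Counts at an unadjusted p under 0.05 are given here as higher and lower, and are to be read against 7.66% higher and 4.71% lower over all genes, or 19.2% and 7.84% over genes above background. They were 4 and 0 of 25 endoplasmic reticulum chaperones, where Pdia6 was at 0.59 ± 0.17 (adjusted p = 0.154) and Hspa5 was at 15.47 in both groups. Of these 25 genes 3 had a change of exactly 0, and a value fixed across arrays may hide a change. The counts were 5 and 1 of 39 mitosis genes, where Ccna2 was at 0.22 ± 0.06 (adjusted p = 0.114) and Birc5 at -0.18 ± 0.07 (adjusted p = 0.332). Proteasome subunits had 3 and 0 of 35, with Psma1 at 0.26 ± 0.07 (adjusted p = 0.0932). Among p53 targets it was 1 and 1 of 28, where Plk2 was at 0.59 ± 0.15 (adjusted p = 0.0995) and Cdkn1a was below background. YAP and Hippo genes had 2 and 2 of 22, with the kinase gene Lats1 at 0.38 ± 0.12 (adjusted p = 0.182). Mesenchymal transition genes had 3 and 1 of 18, with S100a4 at 0.68 ± 0.16 (adjusted p = 0.0841) and Cdh11 at 0.75 ± 0.26 (adjusted p = 0.256).

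Among the other lists without a call, matricellular proteins had 1 and 1 of 16 at an unadjusted p under 0.05, against 12.4% of all genes in both directions together, interferon and antigen presentation genes 1 and 6 of 33, and xenobiotic metabolism and efflux genes 0 and 5 of 25. DNA methylation and Polycomb enzymes had 3 and 0 of 23. Hepatocyte markers had 1 and 2 of 33, endothelial markers 0 and 2 of 20, and macrophage and leukocyte markers 0 and 1 of 22. Pecam1, Kdr, Ptprc and Cd68 were below background in both groups. Of 19 biliary and progenitor markers Gpc3 was the one call.

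**Figure D4:**
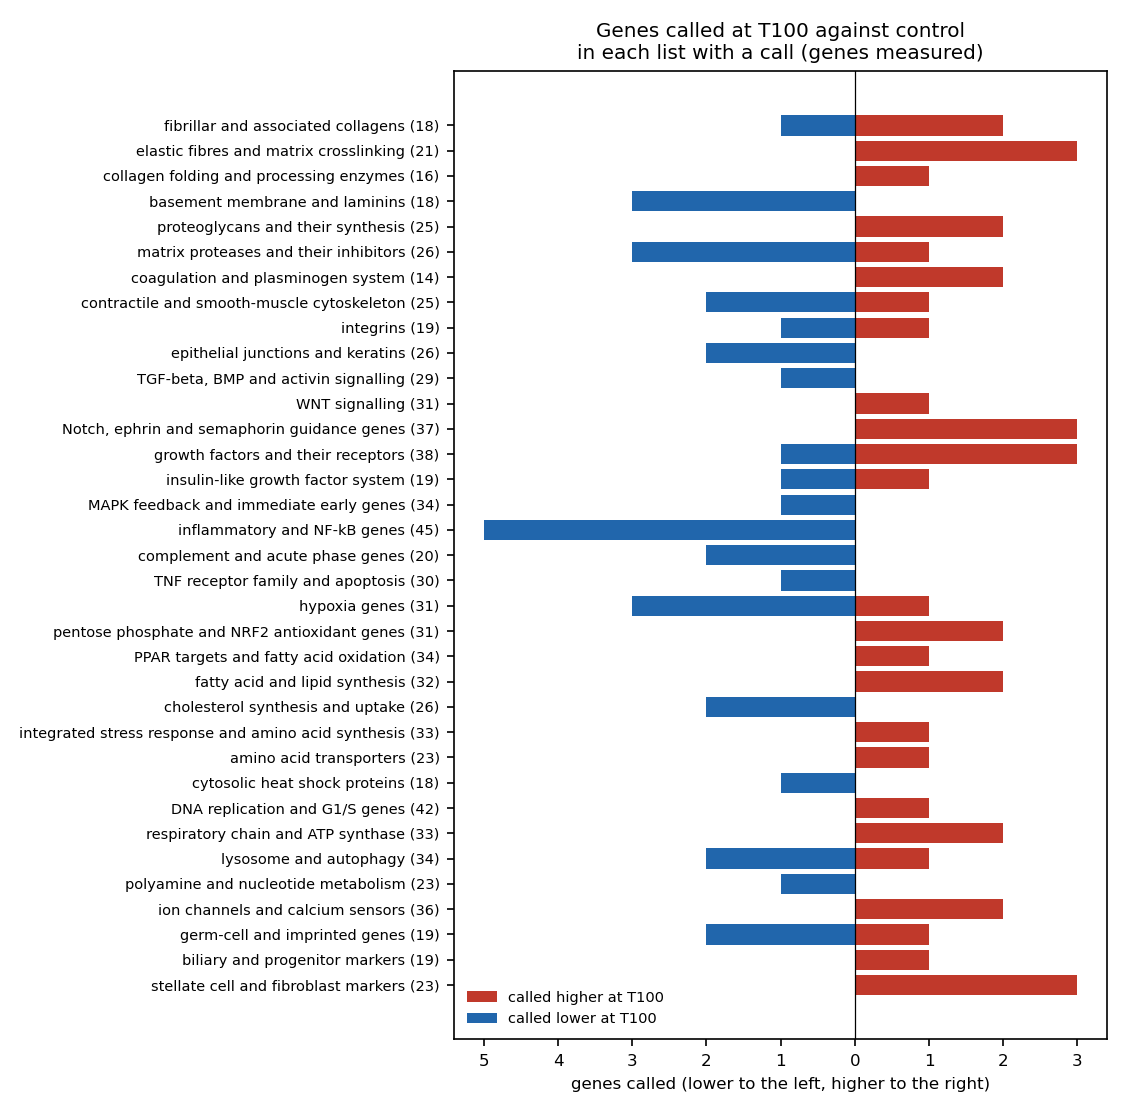
Number of genes called lower (blue, to the left) and higher (red, to the right) at T100 in each of the 35 lists with a call, with the genes measured in parentheses. Inflammatory and NF-kB genes have the most calls in one direction, with 5 lower and 0 higher of 45, and some genes stand on more than 1 list. Over all genes 0.941% were called higher and 0.521% lower.

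Some large differences did not pass the test. The pseudogene row Akr1b8-ps2, picked after its value was seen, was at 11.19, 11.85 and 11.59 on the T100 arrays, against 7.33, 8.77 and 7.99 on the control arrays. Its change of 3.51 ± 1.00 was larger than that of any called gene but Eln and did not pass (adjusted p = 0.144); it passed in the 6-array fit (adjusted p = 0.0491), and the 3 T50 arrays spanned 6.89 to 11.50. Also picked so, Lrrn4, a leucine-rich membrane protein, was at 15.31, 15.46 and 15.74 on the T100 arrays, against 13.57, 14.02 and 14.75 on the control arrays, and its change of 1.39 ± 0.39 did not pass (adjusted p = 0.138). Rspo1, a secreted enhancer of WNT signalling picked in the same way, was at 1.22 ± 0.26 (adjusted p = 0.0581).

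The lower doses are set beside T100 for the 30 rises and 30 falls named by size or p. The 3 comparisons share the same control arrays, so likeness between them is no result. For the 30 that rose at T100, with a median of 1.36, the median change against control was 0.17 at 10 µM and 0.23 at 50 µM. For the 30 that fell, with a median of -1.08, it was -0.81 at 10 µM and -0.68 at 50 µM. Direct tests of T100 against T50 called 256 genes (1.16%) and against T10 681 genes (3.08%) of all tested. The T10 arrays had the highest mean background (5.77, against 5.65 at T100, 5.52 at T50 and 5.42 in control). Their mean 95th percentile over genes was the lowest (9.42, against 9.66 at T100, 9.57 at T50 and 9.57 in control). The part of these array differences in the T10 changes and counts was not tested. Of the 30 rises 19 were called higher at T100 than at T50 and 23 higher than at T10; of the 30 falls 9 were called lower than at T50 and 7 lower than at T10, and 2 each higher. These counts describe genes chosen for their T100 arrays, which the tests share.

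Acta2 ran opposite ways across the doses, with changes against control of -2.21, -0.76 and 2.04 at 10, 50 and 100 µM, and T100 differed from T10 (adjusted p = 0.000281) and T50 (adjusted p = 0.00346). Eln was at 2.42, 1.25 and 3.88, and T100 differed from T50 (adjusted p = 0.0431) but the difference from T10 did not pass (adjusted p = 0.161). Meis1 was at 0.00, 0.45 and 1.45, and Dsel at -0.44, 0.28 and 2.12; both were higher at T100 than at T10 (adjusted p = 0.000281 and 0.00110) and T50 (adjusted p = 0.00292 and 0.00688). Ccl7 was at -2.67, -1.30 and -3.15, so its T50 fall was the smallest, and T100 differed from T50 (adjusted p = 0.00114) and not detectably from T10 (adjusted p = 0.171). Tex101 was at -3.71, -4.43 and -1.99, and was higher at T100 than at T50 (adjusted p = 0.000209) and T10 (adjusted p = 0.000918). Cldn1 was at -0.47, 1.98 and -1.11, with T100 lower than T50 (adjusted p = 7.49e-05). Igfbp4 was at 0.53, 0.36 and -0.79, with T100 lower than T10 (adjusted p = 0.00138) and T50 (adjusted p = 0.00386).

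**Figure D5:**
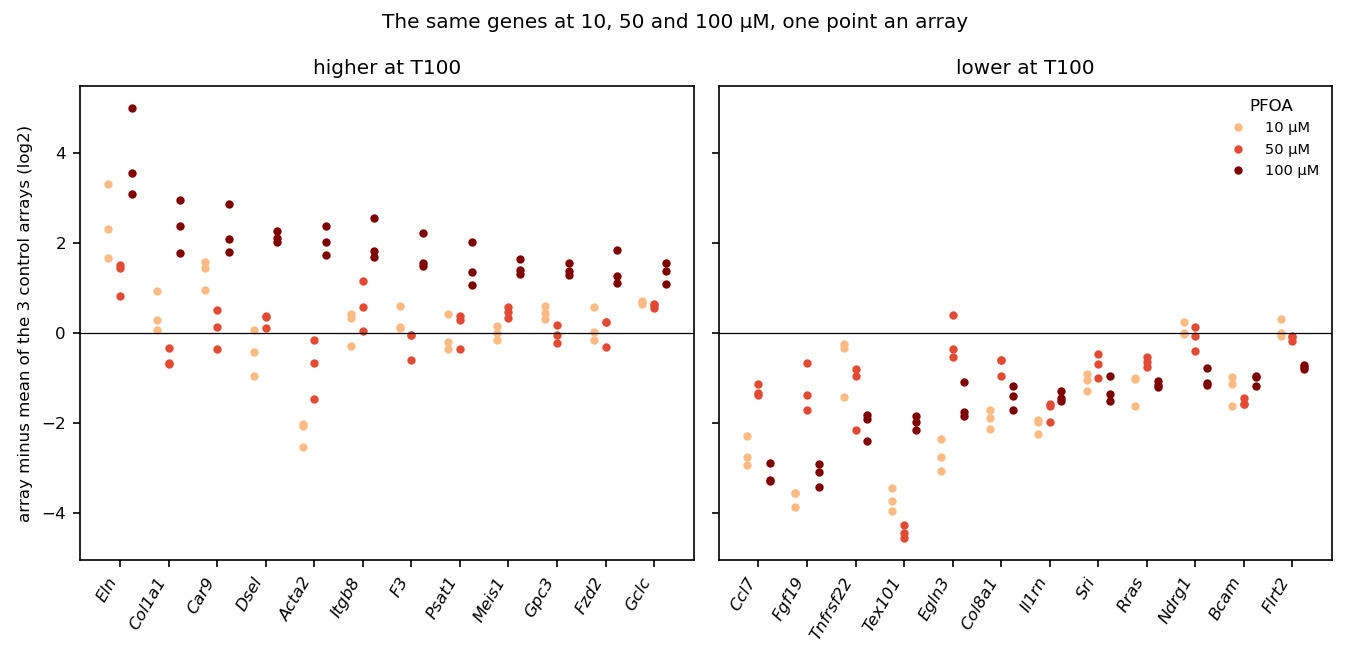
Array minus the mean of the 3 control arrays (log2, vertical axis) for 12 genes that rose (left panel) and 12 that fell (right panel) at T100; within a gene the points run from 10 to 50 to 100 µM, one point an array. Acta2 lies below 0 on the T10 and T50 arrays and above 0 on the T100 arrays, and Tex101 is lowest at 50 µM.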

How the data were processed

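RNA of TRL1215 cells (100 ng a sample) was hybridised to Affymetrix rat arrays, 3 a group, per the labels' protocols. The authors deposited log2 values, 2.87 to 19.93; the base was inferred from the values, and how the authors normalized them is not stated in the labels. Of 70580 probe sets 23446 carried 1 gene symbol in the platform annotation, 505 several and 44891 none. The brightest probe set by the mean over 12 arrays was kept for each of 22093 genes (1182 had several), and symbols were updated through the rat gene table (22077 matched, 1 renamed).

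Group means were fitted to all 12 arrays with limma 3.58.1 in R 4.3.3 (lmFit, eBayes, no covariate, prior df 1.71), with Benjamini-Hochberg adjustment over all genes at 0.05. The procedure was run on simulated data with independent noise and planted changes. Those data held no brightness or background differences between arrays, so they cannot show how the calls depend on such differences. The number of arrays limits the precision. Named genes were the 20 largest rises and 20 largest falls above background with arrays apart and a settled symbol, the next 10 of each direction by p, and for each list up to 6 called members by p, or up to 2 where none was called; genes named otherwise are said to be so or are given as not passing. The genes, lists and tests were chosen with earlier results of these data known. Deviations of T100 and control arrays with the same replicate number were uncorrelated (4.354e-05, -0.00727 and -4.051e-05), so the numbers were not taken as pairs. Alternatives were the 6 arrays alone, a replicate block, quantile normalization, genes above background only, trended and robust eBayes, the mean of probe sets, no genes at a fixed value, a brightness covariate, and leaving out each array. Promoter and microRNA sequences came from RefSeq tables (GRCr8).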

Additional observations from a re-analysis of the deposited data

Results flagged for a closer look

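Probe sets without a gene symbol lie outside the comparisons above. Tested on their own with limma, 584 of 44891 passed (1.30%), of which 117 were higher and 467 lower at T100 than in control, and 428 changed at least 2-fold. Above background were 540 of the 584, and changes ran from -2.26 to 4.62. Many hold the same values: the 584 fall into 488 distinct profiles, 113 higher and 375 lower, and 1 profile is shared by 48 probe sets. At an unadjusted p under 0.05 there were 3973. What these probe sets read was not tested.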

How the results depend on the processing

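The number of called genes was 323, and 53 with at least a 2-fold change. The 6 arrays alone gave 93 and 20. The brightness covariate gave 252 and 33, with 94 of the 252 higher. Leaving out one array gave 89 (without control replicate 2) to 345 (without T10 replicate 1), and 26 to 52 at 2-fold. Without control replicates 1 and 3 the counts were 143 and 161, and without T100 replicates 1, 2 and 3 they were 156, 218 and 193. The cause was not tested. With a replicate block 260 genes were called, and 18 of the 102 called genes named by rule lost their call. Quantile normalization called 456, of which 44.1% were higher, against 64.4% of the 323. The other settings gave 278 (trended) to 444 (genes above background only) calls. No named gene was called with the opposite sign in any of these. Genes at the ceiling, at a fixed value or below background limit what can be seen.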
